A study of Mus musculus with 14 samples.

Results

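The lysosome is the acidic compartment in which macrophages break down what they have taken up. Its digestive enzymes are hydrolases, among them the cathepsins, which cut proteins. A vacuolar proton pump in its membrane, built from a membrane sector (V0) and a cytosolic sector that uses ATP (V1), keeps the lumen acidic, and the transcription factor TFEB is known to switch on many lysosomal genes through a palindromic DNA motif around CACGTG. A set of 33 genes of this compartment was chosen by symbol and function, with earlier results of these data known, and all 33 were found among the 12924 genes of both deposited tables. By role they are 7 cysteine cathepsins (Ctsb, Ctsc, Ctsh, Ctsk, Ctsl, Ctss, Ctsz), 3 other proteases (Ctsa, Ctsd, Tpp1), and 8 enzymes that act on glycans and sulfated sugars (Hexa, Gaa, Gusb, Glb1, Galns, Man2b1, Neu1, Naglu). The remainder are 4 genes of lipid handling (Psap, Lipa, Asah1, Ppt1), 5 membrane proteins (Lamp1, Lamp2, Cd63, Scarb2 and the channel gene Mcoln1), 5 proton pump subunits (Atp6v0a1, Atp6v0d1, Atp6v0d2, Atp6v1a, Atp6v1b2) and Tfeb itself.

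RNA was sequenced from flank tumors of Lewis lung carcinoma (LLC), a mouse lung tumor line, that had grown for 14 days in C57BL/6 mice. The mice were wild type (WT) or p110g-/-, that is, null for PI3K gamma, whose catalytic subunit is the product of Pik3cg. The labels name no promoter or cell type that limits the deletion. Libraries were made from CD11b+Gr1- cells sorted from the tumors, which the labels call tumor-associated macrophages (TAM; 4 WT and 4 p110g-/-), or from pieces of whole tumor (3 WT and 3 p110g-/-). The labels do not say that each library came from its own animal, so p-values measure the spread between these libraries, which may be technical.

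Deposited values are whole numbers scaled per library, called normalized counts here, with column totals of 33248294 to 38153438 (TAM) and 25883561 to 27586429 (tumor). The depth was estimated at 19.7 to 40.7 M reads for TAM and 32.1 to 44.6 M for tumor libraries, so even the lowest value of the set corresponded to 334 estimated reads. Pik3cg was 2748 to 4477 in WT TAM and 1210 to 2211 in p110g-/- TAM, and 487 to 616 in WT and 242 to 417 in p110g-/- tumors, with no overlap in either table. Of 8 macrophage marker symbols, 7 were found, and the absent Emr1 is a former symbol of Adgre1, which was found. The sum of these 7 was 147165 to 228243 in the TAM against 25739 to 37865 in the tumors. The TAM libraries stood apart by number. Mitochondrial transcripts took 2.51% to 3.21% of the total in the libraries numbered 1 and 2 of both genotypes, and 7.70% to 14.4% in those numbered 3 and 4. The summed fibroblast markers were 2538 (WT) and 661 (p110g-/-) in the libraries numbered 1, and 8590 to 52862 in the other 6 TAM libraries.

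Stretches upstream of the start sites are shown because the CACGTG core is the sequence feature through which these genes are known to be linked to TFEB. They come from RefSeq promoter windows of mouse build GRCm38.p6 (250 bases before to 50 after the start), which matched 27 of the 33 genes, the exceptions being Ctsb, Ctsh, Galns, Asah1, Atp6v0d2 and Atp6v1b2. Capitals mark a CACGTG core with an adjoining T before it or A after it, and each line gives the gene, read 5′ to 3′ on its own strand.

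Lamp1: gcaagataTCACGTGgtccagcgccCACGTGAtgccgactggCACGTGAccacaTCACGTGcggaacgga
Mcoln1: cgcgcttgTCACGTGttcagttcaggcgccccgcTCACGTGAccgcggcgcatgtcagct
Ctsd: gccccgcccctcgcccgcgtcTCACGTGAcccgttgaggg
Atp6v1a: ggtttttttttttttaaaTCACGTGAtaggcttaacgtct
Ctsk: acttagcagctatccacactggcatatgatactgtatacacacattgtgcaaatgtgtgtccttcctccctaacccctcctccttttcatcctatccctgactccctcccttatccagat
Ctsc: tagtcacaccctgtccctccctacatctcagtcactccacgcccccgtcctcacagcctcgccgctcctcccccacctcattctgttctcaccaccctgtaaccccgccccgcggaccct

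The Lamp1 stretch is chr8:13159091-13159160 on the plus strand and ends at the base before the start, and it holds 4 cores. The Mcoln1 stretch is chr8:3500439-3500498 on the plus strand, with 2 cores. Those of Ctsd (chr7:142387908-142387947, minus strand) and Atp6v1a (chr16:44139370-44139409, minus strand) each show 1. The 120 bases shown of Ctsk (chr3:95499090-95499209, plus strand) and Ctsc (chr7:88277965-88278084, plus strand) hold none. Searched as CACGTG, which reads the same on both strands, the core was in the windows of 10 of 27 genes (37.0%): Atp6v0d1, Atp6v1a, Ctsa, Ctsd, Ctsl, Gaa, Glb1, Lamp1, Mcoln1 and Naglu. Among all genes of the tables with a window, 1184 of 10238 (11.6%) had it, and among 60 other lysosome genes 18 (30.0%). The longer form TCACGTG, searched on both strands and contained in the first count, was in 9 of 27 (33.3%), against 700 of 10238 genes (6.84%). A match describes the letters in the window only.

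In WT TAM the set was led by Ctss, a cysteine cathepsin known for processing the invariant chain of MHC class II, and Psap, the precursor of the saposins that assist lipid breakdown. Their levels, in normalized counts per kb of transcript and per 1000000 of the library total (CPM below, where no length enters), were 1817 ± 362 and 1788 ± 440 (SD, n = 4), which did not differ beyond their spread. Ctsc, an activator of granule proteases, followed at 700 ± 127, with Ctsd, the main aspartic protease, at 686 ± 110 and Ctsb at 643 ± 37.1, again within their spread of each other. Tfeb was lowest at 16.2 ± 2.44.

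These per-kb levels rest on the longest principal coding transcript in GENCODE M21, and 3 definitions of length were tried. The union of all exons was computed first, and the definition used here was chosen after its ranks had been seen. The other one was the shortest principal transcript. Ctss and Psap were first and second in WT TAM under all 3, and Tfeb was last or next to last. The order in between was not stable: 14 of 33 genes moved by 3 or more ranks in WT TAM and 16 in WT tumor. Ctsl had rank 7 in WT tumor at 309, rank 6 at 294 with the exon union, and rank 1 at 968 with the shortest transcript. Ctsc in WT TAM had rank 3 at 700 and rank 7 at 300.5 with the exon union.

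Within a gene, length plays no part, and most of the set took a larger share of the TAM libraries than of the tumor libraries. In every TAM library 21 of 33 genes were above every tumor library in CPM, where 17.9% of all genes were. The tables were normalized separately, so these ratios were not tested. The median ratio of WT TAM to WT tumor was 1.91 for the set and 0.882 over 11388 genes. It was highest for Ctsh (6.36), an aminopeptidase-type cathepsin, Ctsc (5.52), Tfeb (4.41), Man2b1 (3.80), a lysosomal alpha-mannosidase, and Ctss (3.61). In 3 genes every TAM library lay below every tumor library: Ctsl, a broadly expressed cathepsin, at a ratio of 0.513, Gaa, the acid alpha-glucosidase, at 0.53, and the tetraspanin gene Cd63 at 0.59. The share of all genes lying below in this way was not counted, so whether 3 is many or few is not known. Together the 33 genes made up 1.88% to 2.57% of the TAM totals and 1.19% to 1.44% of the tumor totals. In bulk samples, fewer cells of a type and less RNA per cell cannot be told apart.

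**Figure D1:**
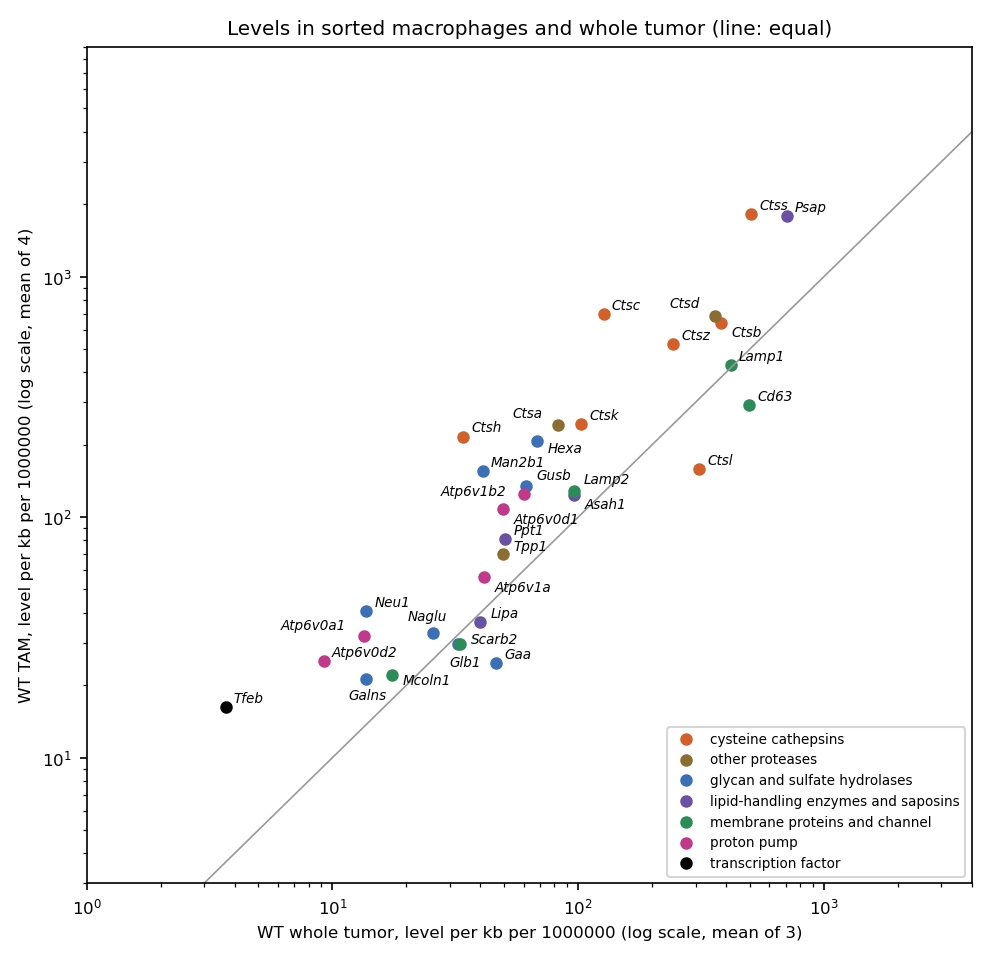
Mean level per kb of the longest principal transcript and per 1000000 in WT whole tumor (x, 3 libraries) and WT TAM (y, 4 libraries), both on log scales, colored by role, with the line of equality. Most genes lie above the line, Ctsh and Ctsc farthest, while Ctsl, Gaa and Cd63 lie farthest below it. The distance from the line does not depend on transcript length, but the position along it does.

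Between genotypes, no gene of the set passed the test in the sorted TAM. With limma and Benjamini-Hochberg adjustment over 12475 genes, 0 of 33 had an adjusted p below 0.05, where 0.112% of all genes did, and 2 (Ctsh and Atp6v1a) had an unadjusted p below 0.05, where 5.87% of all genes did. Same-numbered TAM libraries deviated together, and with the number as a replicate block 2.5% of all genes were called but still 0 of the 33, of which 7 then had an unadjusted p below 0.05 (18.7% of all genes did). The median log2 fold change of p110g-/- over WT was 0.05 for the set and -0.01 for all genes, no gene was without overlap between genotypes (4.3% of all genes were), and single genes ranged from -0.28 to 0.44. As deposited, 24 genes of the set were higher and 9 lower, where 46.8% of all genes were higher. As CPM, 16 were higher and 17 lower, where 33.2% of all genes were higher, so the rescaling moved the set and all genes alike. The medians on the CPM scale were -0.0002 for the set and -0.07 for all genes. In 30 of 33 genes the 95% interval excluded a 2-fold difference either way, and the exceptions were Ctsk, Atp6v0d2 and Cd63. Pik3cg itself, at a log2 fold change of -1.02, was not called in the TAM (limma adjusted p = 0.299) except with the block (0.00557). In whole tumor Pik3cg was at -0.83 (limma adjusted p = 0.0556, and 0.0456 with the block). Same-numbered tumors correlated only weakly (0.0947, 0.0763 and 0.178), so a block by tumor number has little basis.

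**Figure D2:**
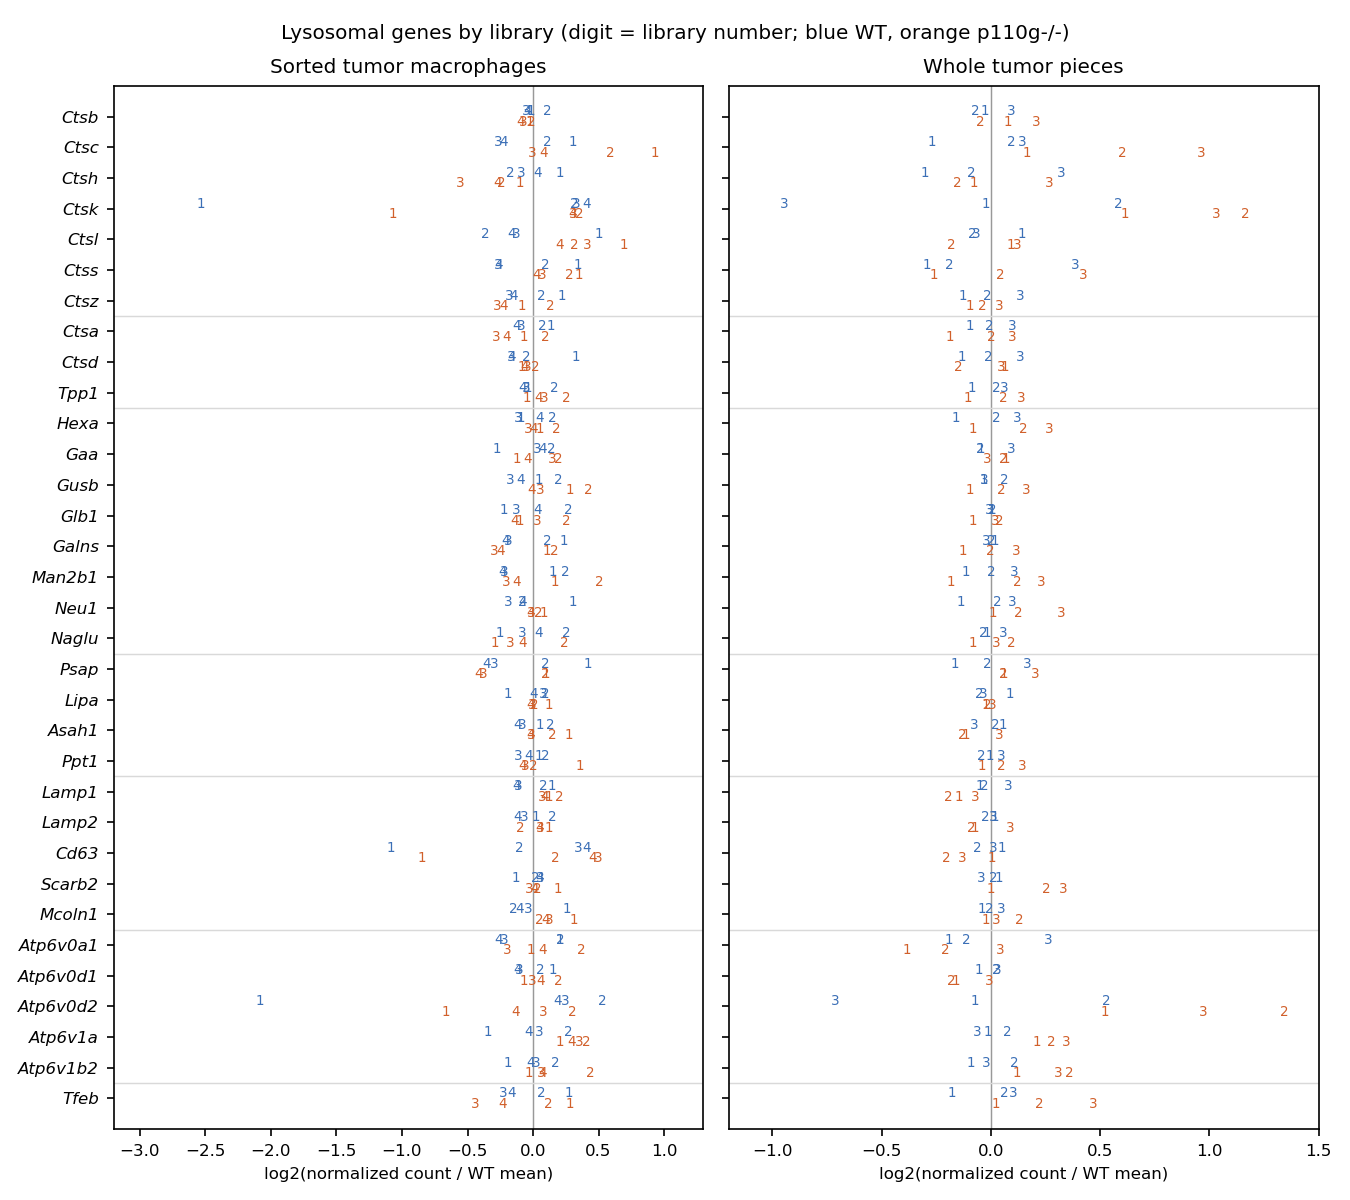
Normalized count of each gene relative to its WT mean (log2, x axis) in TAM (left) and whole tumor (right), with each digit a library's number, blue for WT and orange for p110g-/-. Ctsk, Atp6v0d2 and Cd63 are low in the TAM libraries numbered 1 of both genotypes, and most other genes lie close to their WT mean.

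The 5 largest TAM differences were in Ctsl, Ctsc, Ctsk, Atp6v1a and Ctsh, and none passed the test. Ctsl was 46767, 25719, 30356 and 29541 normalized counts in WT TAM 1 to 4 and 53520, 41218, 43983 and 38114 in p110g-/- TAM. WT TAM 1 lay within the p110g-/- range and the other WT libraries below it. The log2 fold change was 0.44 (SE 0.20, limma adjusted p = 0.885, and 0.0712 with the block). Ctsc was 72676, 63561, 49104 and 50432 in WT TAM and 112188, 88797, 58846 and 62164 in p110g-/- TAM. Each p110g-/- library exceeded the WT library of its number, but the groups overlapped, at a log2 fold change of 0.42 (SE 0.25, limma adjusted p = 0.999, and 0.0797 with the block).

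Atp6v1a encodes the catalytic subunit of the V1 sector. It was 6318, 9661, 8322 and 7846 in WT TAM and 9269, 10676, 10280 and 9847 in p110g-/- TAM. Only WT TAM 2 reached into the p110g-/- range, and the log2 fold change was 0.33 (SE 0.13, limma adjusted p = 0.729, and 0.0801 with the block). Ctsh went the other way, at 13570, 10460, 11097 and 12095 in WT TAM and 10983, 10002, 8031 and 9803 in p110g-/- TAM. It was lower in the p110g-/- library of every number, with overlapping groups (log2 fold change -0.28, SE 0.12, limma adjusted p = 0.830, and 0.112 with the block).

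Because the mitochondrial share split the TAM by number, the comparison was repeated within numbers 1 and 2 and within numbers 3 and 4. This alternative was chosen after the data had been seen. The summed fibroblast markers also differed within numbers 1 and 2, at 2538 and 25909 in WT and 661 and 8590 in p110g-/- TAM. In the libraries numbered 1 and 2, 0 of 33 genes were called, as were 0% of all genes. In those numbered 3 and 4, 3 were called, where 11.3% of all genes were: Ctsl (log2 fold change 0.45, limma adjusted p = 0.0146), Atp6v1a (0.32, 0.0176) and Ctsh (-0.39, 0.0407). Each of these fits holds 2 libraries a genotype. With both libraries numbered 1 left out and the block kept, Ctsl alone was called (0.53, limma adjusted p = 0.0202), where 4.87% of all genes were. Whether the shares of mitochondrial or fibroblast transcripts take part in these differences was not tested.

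As a description across the numbered pairs, 10 genes were higher in the p110g-/- library of all 4 numbers (Ctsc, Ctsl, Ctss, Gusb, Man2b1, Asah1, Cd63, Mcoln1, Atp6v1a and Atp6v1b2), where 11.2% of all genes were. Another 4 were lower in all 4 (Ctsb, Ctsh, Naglu and Psap), where 15.3% of all genes were. In CPM, these counts became 6, where 6.67% of all genes were higher in all 4, and 3, where 19.9% were lower in all 4. Ctsc, Ctsl, Ctss, Mcoln1 and Atp6v1a stayed higher, and Ctsh and Psap lower, in all 4 pairs on both scales.

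**Figure D3:**
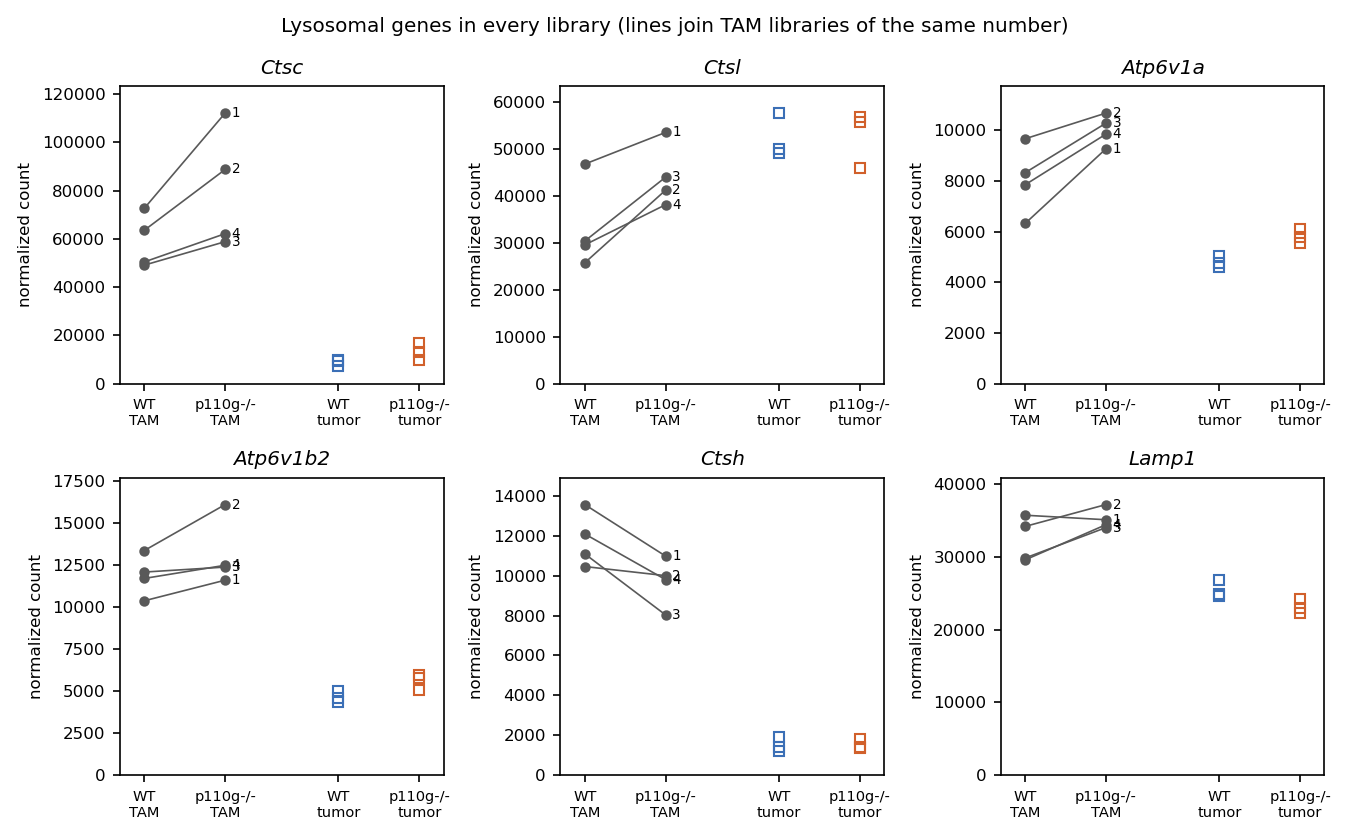
Normalized counts of 6 genes in every library, with lines joining the TAM libraries of the same number (digits) and squares for whole tumor (blue WT, orange p110g-/-). In the TAM, Ctsc, Ctsl, Atp6v1a and Atp6v1b2 go up and Ctsh goes down along all 4 lines. In the tumors, Ctsc, Atp6v1a and Atp6v1b2 are higher and Lamp1 is lower in p110g-/-, without overlap between genotypes.

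In whole tumor, 1 of 33 genes passed the test, Atp6v1a, which rose; by limma 4.35% of all 12717 genes tested were called, and 2.25% were called higher. It was 4752, 5049 and 4584 in WT tumors and 5544, 5803 and 6091 in p110g-/- tumors. All p110g-/- tumors were above all WT tumors, at a log2 fold change of 0.28 (SE 0.06, 95% interval 0.15 to 0.41, limma adjusted p = 0.0402). The call was lost when any WT tumor, p110g-/- tumor 2 or p110g-/- tumor 3 was left out (adjusted p 0.0999 to 0.129), and was kept without p110g-/- tumor 1 (0.0182). It was also lost with a constant prior on the spread (0.0887) and with all 14 libraries in 1 fit (0.649). In the 6 fits without 1 tumor the log2 fold change stayed between 0.24 and 0.32.

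Libraries of the genotypes did not overlap in 5 genes, 4 of them higher in p110g-/- tumors (Ctsc, Ctsk, Atp6v1a and Atp6v1b2) and 1 lower (Lamp1). Of all genes 31% did not overlap, 15.7% higher and 15.4% lower. With 3 against 3, this count is therefore below the level of all genes. Atp6v1b2, another V1 subunit, was 4368, 5004 and 4579 in the WT tumors and 5048, 5962 and 5758 in the p110g-/- tumors (log2 fold change 0.26, SE 0.08, limma adjusted p = 0.0900). Ctsc was 7173, 9223 and 9564 in the WT tumors and 9703, 13134 and 16887 in the p110g-/- tumors (0.59, SE 0.19, limma adjusted p = 0.116). The p110g-/- tumor 3 was highest for Ctsc and p110g-/- tumor 1 lay just above the WT tumors. Lamp1, an abundant lysosomal membrane glycoprotein, was 24567, 24935 and 26895 in the WT tumors and 23026, 22274 and 24213 in the p110g-/- tumors (-0.14, SE 0.06, limma adjusted p = 0.225). Without p110g-/- tumor 1, 5 genes were called in place of 1 (Atp6v0d2, Atp6v1a, Atp6v1b2, Ctsc and Scarb2), where 15.7% of all genes were.

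**Figure D4:**
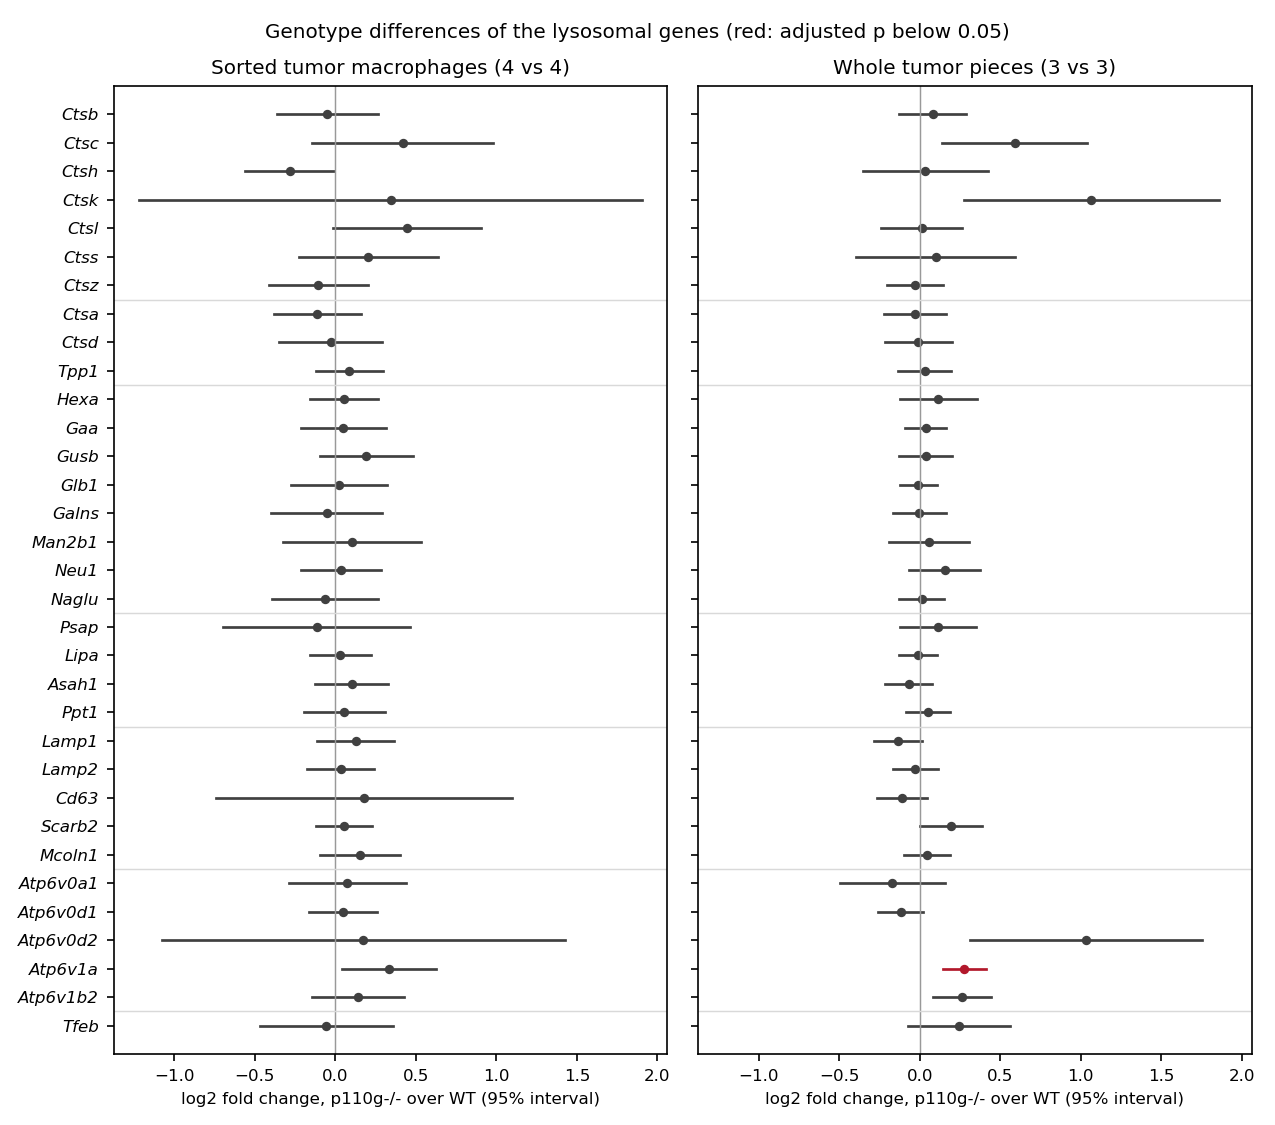
Log2 fold change of p110g-/- over WT (points) with 95% intervals (lines) for the 33 genes in TAM (left, 4 against 4) and whole tumor (right, 3 against 3), in red where the limma adjusted p was below 0.05. Only Atp6v1a in whole tumor is red, and the widest intervals are those of Ctsk and Atp6v0d2, with Cd63 in the TAM.

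Ctsk and Atp6v0d2 had the largest fold changes in whole tumor and the widest 95% intervals in both tables. Cathepsin K is known as the collagen-degrading protease of osteoclasts, and Atp6v0d2 encodes a V0 subunit that osteoclasts and some macrophages express. Ctsk was 4179, 6350 and 2201 in the WT tumors and 6493, 9497 and 8670 in the p110g-/- tumors, a log2 fold change of 1.06 (SE 0.34, 95% interval 0.27 to 1.86, limma adjusted p = 0.108). WT tumor 3 was the lowest of the 6, and without it the log2 fold change was 0.66. Atp6v0d2 was 607, 922 and 390 in the WT tumors and 918, 1624 and 1255 in the p110g-/- tumors (1.03, SE 0.31, limma adjusted p = 0.0956). Here WT tumor 2 overlapped p110g-/- tumor 1, and without WT tumor 3 the log2 fold change was 0.72.

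In the TAM both genes differed more between libraries than between genotypes. Ctsk was 2147, 15433, 15582 and 16454 in WT TAM 1 to 4 and 5908, 15861, 15355 and 15259 in p110g-/- TAM. Both libraries numbered 1 were far below the other 6, which lay between 15259 and 16454. Without WT TAM 1 the fold change of Ctsk turned from 0.34 to -0.38 on the log2 scale. Atp6v0d2 was 506, 3093, 2541 and 2449 in WT TAM and 1351, 2638, 2261 and 1953 in p110g-/- TAM, again lowest in the libraries numbered 1. Cd63 was 5153, 10131, 13875 and 14465 in WT TAM and 6045, 12299, 15417 and 14920 in p110g-/- TAM, and it was likewise lowest in those libraries.

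Osteoclast markers were measured in the same libraries. Of the 5 on the list, 4 were found (Ocstamp, Dcstamp, Acp5 and Oscar) and Calcr, a defining marker, was not among the symbols of the tables. Their sum was 5180, 25443, 27570 and 28544 in WT TAM and 11920, 30306, 20730 and 21265 in p110g-/- TAM. It was 5340, 8113 and 2070 in WT tumors and 7874, 12379 and 10781 in p110g-/- tumors. All 4 markers were lowest of the WT TAM in number 1, and lowest of the 6 tumors in WT tumor 3. In p110g-/- TAM, Acp5, Dcstamp and Oscar were lowest in number 1, but Ocstamp was 1073, 1874, 967 and 953 and was not. In the tumors Dcstamp was 60, 110 and 51 for WT and 73, 82 and 79 for p110g-/-, within the WT range. Most of the sum was Acp5, the tartrate-resistant acid phosphatase of the lysosome, at 1897 to 7648 in WT and 7403 to 11680 in p110g-/- tumors (log2 fold change 1.20, SE 0.45, limma adjusted p = 0.148). The part of these cells, or of fibroblasts, in the differences of Ctsk and Atp6v0d2 was not tested.

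**Figure D5:**
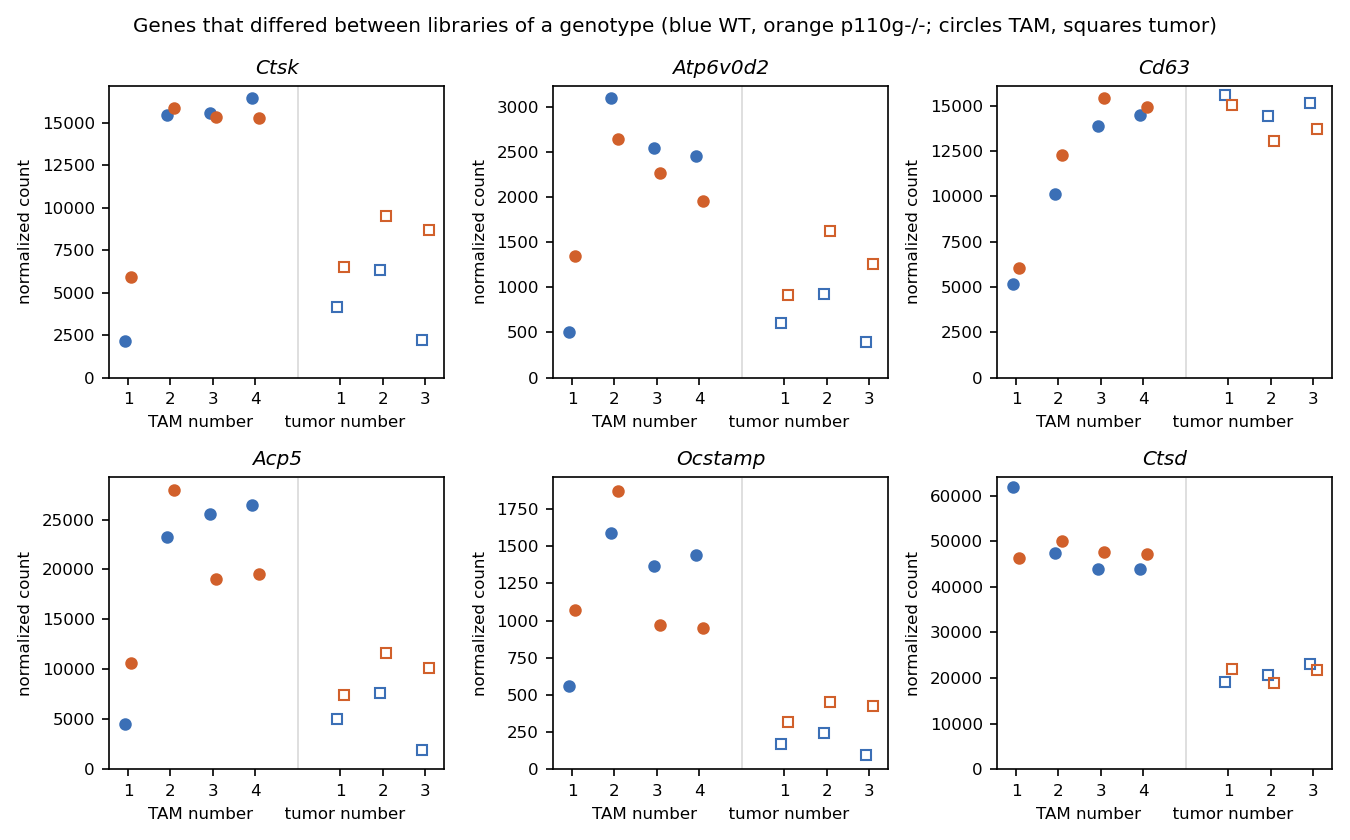
Normalized counts from 0 by library number in TAM (circles) and whole tumor (squares) for Ctsk, Atp6v0d2, Cd63, the osteoclast markers Acp5 and Ocstamp, and Ctsd for comparison (blue WT, orange p110g-/-). Ctsk, Atp6v0d2 and Acp5 are low in the TAM numbered 1 and in WT tumor 3, while Ctsd is highest in WT TAM 1.

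The genotype effects in TAM and tumor were not shown to differ for any gene of the set. Fitted over all 14 libraries, the difference (TAM minus tumor) was called in 0 of 33 genes by limma, where 0.14% of all genes were, 0 of 33 with the block (2.61% of all genes), and 1 gene (Lamp1) had an unadjusted p below 0.05, where 6.51% of all genes did. For Lamp1 the difference was 0.26 on the log2 scale (SE 0.12, limma adjusted p = 0.764). For Ctsl, higher in the TAM only by point estimate, it was 0.43 with a 95% interval of -0.14 to 1.00.

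Of the other genes of the lysosome, 77 listed and 77 tested, 0 were called in the TAM by limma (0.112% of all genes were) and 9 had an unadjusted p below 0.05 (5.87% of all genes did). With the block 1 was called, Gnptab, which rose, where 2.5% of all genes were called. It encodes subunits of the enzyme that starts the mannose 6-phosphate tag by which hydrolases are sorted to lysosomes. Gnptg and Nagpa, also genes of this tagging, were at log2 fold changes of -0.21 and -0.01 in the TAM. Gnptab was 3179, 3930, 3244 and 2917 in WT TAM and 4886, 4664, 4975 and 3964 in p110g-/- TAM, with no overlap (log2 fold change 0.48, limma adjusted p = 0.301, and 0.029 with the block). In whole tumor 4 of the 77 were called by limma, where 4.35% of all genes were. The count was 0 with a constant prior or with all 14 libraries in 1 fit. Without p110g-/- tumor 1 it was 11, where 15.7% of all genes were called, and without any other tumor it was 0 or 1. With the block, which has little basis in the tumors, 5 were called higher and 1 lower, where 5.97% of all genes were called. Gnptab rose by 0.30 on the log2 scale (limma adjusted p = 0.0407), from 2026 to 2256 in WT to 2500 to 2758 in p110g-/- tumors. Atp6v0a2, a V0 subunit, rose by 0.30 (0.0280), and Ctsw, a cathepsin of cytotoxic lymphocytes, by 1.48 (0.0498), at 31 to 67 in WT and 84 to 152 in p110g-/- tumors. The summed T and NK cell markers were 91 to 199 in WT and 391 to 546 in p110g-/- tumors, and their part in the Ctsw difference was not tested. Rnaset2b fell by 0.40 (0.0293), and its value is uncertain because reads shared with a near-identical copy may have been split.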

How the data were processed

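RNA from 14 mouse libraries was analysed from the values the authors deposited. The submitters' processing notes name Bowtie2, DESeq and build mm9, without versions, and no source used here gives the counter, annotation or normalization formula. As deposited, each value is a score made from gene counts scaled by 1 factor per library and rounded, read from the values themselves. TAM and tumor tables were normalized separately, so levels were not tested between tables. Estimated reads come from the smallest step between values, a method tested on simulated data that recovered the step within 1% in 14 libraries.

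Genes with at least 10 normalized counts in as many libraries as the smaller group were tested with limma 3.58.1 (R 4.3.3) on log2(value + 1) with a mean-dependent prior, two-sided, with Benjamini-Hochberg adjustment over all genes and a threshold of 0.05. This scale understates fold changes of low genes. The difference of effects, a difference of within-table differences, used all 14 libraries, as did 1 alternative fit. Deviations from the group mean correlated between TAM libraries of the same number (0.847, 0.472, 0.808 and 0.702), taken as pairing from the data, so the number was also fitted as a block. WT TAM 4 correlated more with p110g-/- TAM 3 (0.777).

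The 33 genes and all lists were chosen with earlier results of these data known. Named with every library's value were genes called, genes without overlap, and the 5 largest fold changes per table. Per-kb levels used 3 transcript lengths, with the one printed chosen after seeing the ranks of another. The closing section gives the effect of each alternative.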

Additional observations from a re-analysis of the deposited data

Results flagged for a closer look

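In each group of 4 TAM libraries the highest and lowest value of every gene was compared with its nearest neighbour, relative to the range of the group. Of 66 groups tested, 5 had a gap over Dixon's 95% critical value for 4 libraries, and chance flags about 1 in 20 groups. Ctsk was lowest in WT TAM 1 at 2147 (0.929 of the range) and in p110g-/- TAM 1 at 5908 (0.94). Tpp1 was highest in WT TAM 2 at 9447 (0.844). Lipa (3982, 0.842) and Ppt1 (8309, 0.839) were highest in p110g-/- TAM 1.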

How the results depend on the processing

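Set counts of called genes moved in these fits. In the TAM the count of 0 of 33 became 3 with the libraries numbered 3 and 4 only (11.3% of all genes). It became 1 with the replicate block and both libraries numbered 1 left out (4.87% of all genes). It stayed 0 in every other fit, the replicate block included. The count of 0 of the 77 other lysosome genes became 14 with numbers 3 and 4 only (11.3% of all genes). It became 1 with the replicate block (2.5% of all genes) and 8 with the block and both libraries numbered 1 left out (4.87%). It was also 1 with all 14 libraries in 1 fit and 1 without both libraries numbered 1, fits whose share of all genes is not given here. In whole tumor the count of 1 became 0 with a constant prior, 0 with all 14 libraries in 1 fit and 4 with the replicate block (5.97% of all genes). It ranged from 0 to 5 when 1 tumor was left out, and the 5 came without p110g-/- tumor 1 (15.7% of all genes). The 4 other lysosome genes became 0 with a constant prior, 0 with all 14 libraries and 7 as counts per 1000000, where the share of all genes is not given here. With the replicate block 5 of them were called higher and 1 lower (5.97% of all genes). The count ranged from 0 to 11 when 1 tumor was left out, and the 11 came without p110g-/- tumor 1 (15.7% of all genes). The tumor numbers correlated at 0.0947, 0.0763 and 0.178, so they share only a number. The cause of these changes was not tested. The median log2 fold change of the set was 0.05 (TAM) and 0.04 (tumor) as deposited, and -0.0002 (TAM) and 0.08 (tumor) as counts per 1000000. Over all genes the median was -0.01 (TAM) and 0.007 (tumor) as deposited, and -0.07 (TAM) and 0.05 (tumor) as counts per 1000000. With a median-of-ratios rescaling the median of the set was 0.05 (TAM) and 0.03 (tumor). No called fold change reversed. Of the alternatives, those on subsets of the TAM numbers, and the lengths, were chosen after seeing the data. The lowest value of the set corresponded to 334 estimated reads, and whether depth or the number of libraries limits the calls was not tested.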
